A study of Mus musculus with 4 samples.

Results

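Gene expression of p53 pathway genes was compared between T29 cells, which come from a lymphoma of the mouse thymus, treated with the gamma-secretase inhibitor MRK003 (GSI) and T29 cells treated with DMSO, the solvent. The genes were p53 (Trp53), its inhibitor Mdm2, and 8 genes known as direct p53 targets outside the BCL2 family and the inhibitors of cyclin-dependent kinases: Trp53inp1, Btg1, Btg2, Ccng1, Sesn1, Zmat3, Phlda3 and Perp. Every probe set whose only gene symbol in the platform annotation was 1 of these 10 was taken, which gave 20 of 45037 probe sets for 9 of the 10 genes. No probe set carried Trp53 as its only symbol, so p53 itself was not analysed here. There were 2 GSI arrays and 2 DMSO arrays of Affymetrix GeneChip type. The labels write the inhibitor treatment as 5 mM for 36 h, in the same words for all 4 samples, so the groups come from the sample titles. All samples are of 1 cell line, whose p53 genotype the labels do not give. The labels do not tell whether the replicates come from separate cultures. The p-values therefore measure only how far these arrays lie apart, and that spread may be technical.

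The transcription factor p53 is kept low by Mdm2, a ubiquitin ligase that marks it for degradation and is itself a p53 target, which closes a feedback loop. When p53 is stabilised, for instance after DNA damage, it raises genes that hold the cell cycle, repair DNA, damp growth signalling or start apoptosis. Thymocytes are known to be among the cells in which p53 acts strongly, and mice without p53 develop thymic lymphomas. Several of the targets also answer to other regulators, among them FoxO factors for Sesn1 and Btg1.

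Values are log2 expression as deposited. A gene was represented by its brightest probe set in a fit over 18193 genes (the gene fit), and all probe sets were tested on their own in a second fit over 45037 (the probe set fit). Both used limma with Benjamini-Hochberg adjustment, and a call needed an adjusted p under 0.05. In bulk RNA, a change in the share of cells that express a gene and a change per cell cannot be told apart. The array medians lay between 4.86 and 4.89. Notch targets checked the treatment labels: all 8 of 8 fell, where 1.56% of all genes did. The largest fall was that of Dtx1, a Notch-regulated ubiquitin ligase gene. It had log2 values of 6.04 and 5.88 on the GSI arrays, against 9.60 and 9.38 on the DMSO arrays. The labelled cell type was checked with 13 T lineage markers, whose median level lay between 11.29 and 11.69 per array. Of these 13, 4 rose (Cd8a by 1.07, Cd247 by 0.81, Cd4 by 0.75 and Thy1 by 0.53 on the log2 scale), a share of 30.8%. Cd3g, named after its values were seen, fell by 0.47. Over all genes 2.56% rose and 1.56% fell. Cd2 and Cd5, also named after their values were seen, were the 2 T lineage markers below the array medians on every array. Of 25 genes listed as B cell, myeloid, natural killer, erythroid and stromal or epithelial markers, 15 lay below the array medians on every array. Of the 25, 1 rose (Pecam1, by 0.64) and 1 fell by 1.28 on the log2 scale (Pdgfrb). Pecam1 did not pass with the replicate number as a block (limma, adjusted p = 0.0705). The myeloid marker Itgam, named after its values were seen and below the array medians on every array, differed by 1.05 (limma, adjusted p = 0.0561) and passed in the 5 alternatives on 4 arrays that tested it (0.0132 to 0.0406). Their part in the results below was not tested.

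Of the 9 genes measured, Trp53inp1 and Btg2 rose with GSI, and none fell. The share that rose was 22.2%, where 2.56% of all genes rose, 1.56% fell and 4.12% were called in either direction. The 9 genes, like the lists below, were chosen with earlier results of these data known. With GSI 7 of the 9 had a higher mean, where 8555 of all 18193 genes did. The median log2 difference was 0.27, against -0.01 over all genes. In 5 of the 9 both GSI arrays lay above both DMSO arrays, a share of 55.6%, where 23.7% of all genes did so, and in 0 both lay below, where 27.7% of all genes did. In Btg1 this separation was only a few thousandths of a log2 unit. At an unadjusted p under 0.05, 4 of the 9 were higher and 0 were lower (limma), where 10.8% of all genes were higher and 10.7% lower. Without any 1 of the 4 arrays, a group holds 1 array, and the gene fit called almost no gene of all tested, and none of the 9. The log2 differences of Trp53inp1 and Btg2 then stayed at 1.27 to 1.48 and at 1.02 to 1.40.

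**Figure D1:**
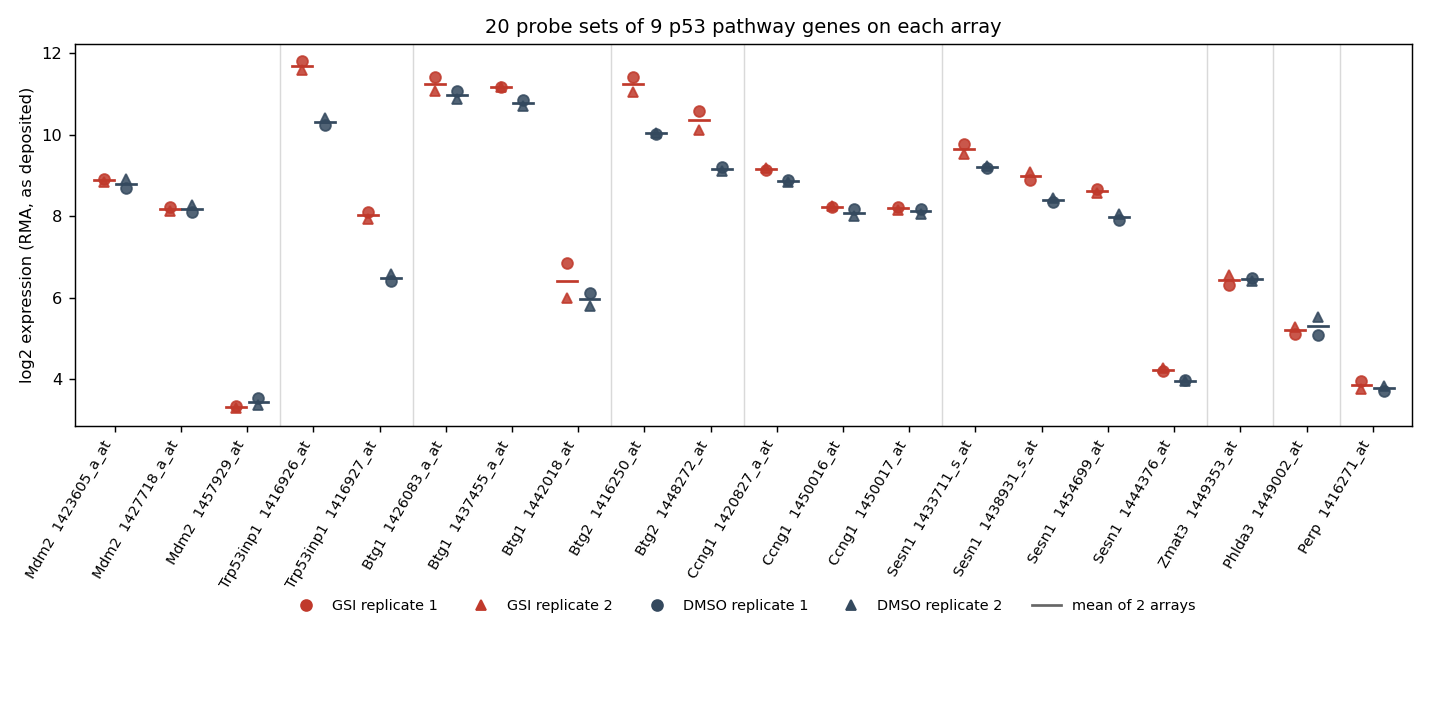
Log2 expression as deposited (y axis) of the 20 probe sets of the 9 genes (x axis), with the GSI arrays in red on the left and the DMSO arrays in dark blue on the right of each pair. Circles are replicate 1, triangles replicate 2 and short lines the mean of 2 arrays. Both probe sets of Trp53inp1 and of Btg2 lie clearly higher with GSI, and those of Mdm2, Zmat3, Phlda3 and Perp lie close together.

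The probe set fit showed the same genes from more sides. Of 20 probe sets 4 rose, both of Trp53inp1 and both of Btg2, and 0 fell. That is 20% rising, where 0.948% of all probe sets rose, 0.446% fell and 1.39% were called in either direction. At an unadjusted p under 0.05, 10 of the 20 were higher and 0 lower, where 8.17% of all probe sets were higher and 8.23% lower. The GSI arrays lay above the DMSO arrays in 12 probe sets, where 21.3% of all probe sets did so, below them in 1, where 25.1% did, and overlapped with them in 7. Probe sets of a gene share its transcripts and are not replicates. Of the 20 probe sets 16 had a higher mean with GSI, where 21083 of all 45037 did. In Trp53inp1, Btg1, Btg2, Ccng1 and Sesn1 every probe set had a higher mean with GSI, while of the 3 probe sets of Mdm2 only 1 did.

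Mdm2 encodes the ubiquitin ligase that restrains p53, and its own transcription responds to p53 through a promoter inside the gene. Its brightest probe set (1423605_a_at) had log2 values of 8.90 and 8.85 on the GSI arrays, against 8.69 and 8.91 on the DMSO arrays, so that both GSI values lay between the DMSO values. The log2 difference was 0.08 with a 95% interval of -0.19 to 0.34 (gene fit, limma, adjusted p = 0.742). The second probe set (1427718_a_at) had values of 8.22 and 8.12 with GSI, against 8.10 and 8.27 with DMSO, and differed by -0.01 (probe set fit, adjusted p = 0.975). The third (1457929_at) lay below the array medians, at 3.34 and 3.28 with GSI and 3.54 and 3.35 with DMSO. On this dim probe set both GSI arrays lay below both DMSO arrays, and the difference of -0.14 did not pass (probe set fit, limma, adjusted p = 0.600).

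Trp53inp1 encodes a stress-induced nuclear protein that binds kinases which modify p53 and that also takes part in autophagy. Probe set 1416926_at had log2 values of 11.80 and 11.60 on the GSI arrays, against 10.23 and 10.42 on the DMSO arrays. The means of 11.70 ± 0.15 with GSI and 10.32 ± 0.13 with DMSO (SD, n = 2 each) differed by 1.38 ± 0.12 (SE), a 2.60-fold rise (gene fit, limma, adjusted p = 0.00630). The gap between the groups was far wider than that between replicates of either group. The dimmer probe set 1416927_at had values of 8.10 and 7.94 with GSI, against 6.40 and 6.58 with DMSO, and rose 2.88-fold (probe set fit, limma, adjusted p = 0.00922). Among the 466 genes that rose, Trp53inp1 had the 35th largest difference. With 1 array left out, when almost no gene of all tested passed, it did not pass either, while its difference stayed between 1.27 and 1.48.

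Btg2 and Btg1 belong to the BTG/TOB family of antiproliferative proteins, which bind the CCR4-NOT deadenylase and promote shortening of mRNA tails. Btg2 is the better known p53 target of the pair. Its brighter probe set (1416250_at) had log2 values of 11.43 and 11.05 on the GSI arrays, against 10.02 and 10.04 on the DMSO arrays. The means of 11.24 ± 0.27 with GSI and 10.03 ± 0.02 with DMSO (SD, n = 2 each) differed by 1.21 ± 0.14 (SE), a 2.31-fold rise (gene fit, limma, adjusted p = 0.0138). The second probe set (1448272_at) had values of 10.57 and 10.13 with GSI, against 9.21 and 9.10 with DMSO, and rose 2.29-fold (probe set fit, limma, adjusted p = 0.0357). On both probe sets the GSI arrays lay further apart than the DMSO arrays, with GSI replicate 1 the higher. Btg2 had the 58th largest difference among the 466 rises. It did not pass with the replicate number as a block. With any 1 array left out, when almost no gene of all tested passed, it did not pass either, and its difference was 1.02 to 1.40.

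Because Btg2 and Btg1 differed in the size of their change, their RefSeq promoters (GRCm38.p6, 250 bases before to 50 bases after the start) are shown side by side. Promoters were at hand for 7 of the 10 genes, in 8 windows, and Trp53inp1, Zmat3 and Perp had none in the table. Capitals mark matches, on either strand, to 5 motifs chosen after the sequences had been seen: TGGGAA (the core bound by the Notch partner Rbpj), TGTTTAC (bound by FoxO factors), CACGTG (the E-box of Myc and Max), TGACGTCA (the cyclic AMP response element, CRE) and the p53 half-site. The Btg2 window is chr1:134079106-134079405 on the minus strand and the Btg1 window chr10:96616751-96617050 on the plus strand.
Btg2: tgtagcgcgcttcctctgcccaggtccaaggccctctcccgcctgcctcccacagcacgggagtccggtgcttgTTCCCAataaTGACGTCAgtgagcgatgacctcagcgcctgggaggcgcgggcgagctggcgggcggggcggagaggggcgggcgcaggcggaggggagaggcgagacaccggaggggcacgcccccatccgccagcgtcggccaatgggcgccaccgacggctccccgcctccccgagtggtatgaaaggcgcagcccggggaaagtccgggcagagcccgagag
Btg1: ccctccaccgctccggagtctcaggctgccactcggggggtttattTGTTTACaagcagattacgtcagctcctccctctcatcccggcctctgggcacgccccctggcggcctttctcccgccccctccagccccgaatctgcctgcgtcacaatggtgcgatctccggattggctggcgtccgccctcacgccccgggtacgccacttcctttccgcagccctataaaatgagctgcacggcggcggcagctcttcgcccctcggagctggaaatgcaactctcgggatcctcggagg
The Btg2 window held the CRE, which 1.79% of all 32851 promoters hold, and 1 match to TGGGAA on the reverse strand, which 25.6% hold. The Btg1 window held 1 match to TGTTTAC, found in 3.65% of all promoters. The matches did not overlap each other, and they are matches of letters, not measured binding.

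Btg1 is strongly expressed in resting lymphocytes and falls when they divide. Its brightest probe set (1426083_a_at) had log2 values of 11.42 and 11.07 on the GSI arrays, against 11.06 and 10.88 on the DMSO arrays. The lower GSI array and the higher DMSO array nearly coincided, and the difference of 0.27 did not pass (95% interval -0.08 to 0.63; gene fit, limma, adjusted p = 0.342). Without GSI replicate 1 the difference was 0.0958, and over the 4 fits with 1 array left out it reached 0.45. The probe set 1437455_a_at had closer replicates, 11.17 and 11.17 with GSI against 10.86 and 10.71 with DMSO. It differed by 0.39 (95% interval 0.14 to 0.63; probe set fit, limma, adjusted p = 0.148). Of 6 alternatives on 4 arrays it passed in 1, with an intensity trend and robust prior (limma, adjusted p = 0.0189). The third (1442018_at) had values of 6.84 and 5.99 with GSI, against 6.11 and 5.81 with DMSO, with GSI replicate 1 well above the other 3 arrays. The RefSeq annotation lists Btg1b and Btg1c, formerly classed as pseudogenes of Btg1, and how much of the signal comes from them is uncertain.

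Sesn1 encodes sestrin 1, which lowers the activity of the growth kinase complex mTORC1. Its brightest probe set (1433711_s_at) had log2 values of 9.76 and 9.54 on the GSI arrays, against 9.17 and 9.24 on the DMSO arrays, a difference of 0.44 ± 0.11 (SE) that did not pass (gene fit, limma, adjusted p = 0.0851). Probe set 1438931_s_at had 8.88 and 9.09 with GSI, against 8.35 and 8.44 with DMSO. Probe set 1454699_at had 8.66 and 8.56 with GSI, against 7.91 and 8.05 with DMSO. In all 4 probe sets, the dim 1444376_at included (4.19 and 4.26 with GSI, 3.97 and 3.95 with DMSO), the GSI arrays lay above the DMSO arrays, and the 95% interval of each difference lay above 0. The differences of 1438931_s_at and 1454699_at were 0.59 and 0.63, and neither passed the probe set fit (limma, adjusted p = 0.0784 and 0.0573). The mean of the 4 probe sets did pass (0.48, limma, adjusted p = 0.0272), so whether Sesn1 was called depended on how its probe sets were combined. In the gene fit it also passed with an intensity trend and robust prior (0.0177) and with dim genes left out (0.0295). Of 6 alternatives of the probe set fit on 4 arrays, 1454699_at passed in 4, 1438931_s_at in 2 and 1433711_s_at in 1. By the naming of the array's maker, the ending _s_at marks a probe set that can match transcripts of more than 1 gene, and 2 of the 4 carry it.

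Sesn1 has 2 RefSeq starts, shown because it was the gene with the largest difference among those that did not pass. The windows are chr10:41810324-41810623 and chr10:41887189-41887488, both on the plus strand, with the same marking as above.
Sesn1 start 1: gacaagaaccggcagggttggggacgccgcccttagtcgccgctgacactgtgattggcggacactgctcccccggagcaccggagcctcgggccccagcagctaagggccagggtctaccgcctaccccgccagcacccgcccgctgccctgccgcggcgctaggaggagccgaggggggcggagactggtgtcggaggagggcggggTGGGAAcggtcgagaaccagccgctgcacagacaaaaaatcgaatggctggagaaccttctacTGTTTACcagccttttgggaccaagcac
Sesn1 start 2: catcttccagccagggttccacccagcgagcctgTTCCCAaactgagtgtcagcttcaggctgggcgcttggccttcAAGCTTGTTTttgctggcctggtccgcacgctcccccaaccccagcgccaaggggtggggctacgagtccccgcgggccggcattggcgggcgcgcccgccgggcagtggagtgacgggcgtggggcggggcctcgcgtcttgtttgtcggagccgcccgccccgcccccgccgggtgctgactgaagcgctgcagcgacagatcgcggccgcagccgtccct
Each window held 1 match to TGGGAA, on the plus strand at the first start and on the reverse strand at the second. The first also held TGTTTAC, beyond its start, and the second a p53 half-site, a pattern that 8.36% of all promoters hold. The Trp53, Mdm2 and Ccng1 windows held 1 half-site each, the Mdm2 window also a match to TGTTTAC on the reverse strand and the Trp53 window also CACGTG (7.15% of all promoters), and the Phlda3 window none of the 5 motifs. These too are matches of letters, and full p53 sites were not searched for. Whether the Mdm2 window covers the p53-responsive promoter inside the gene was not analysed here, nor which start the measured transcripts came from.

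Ccng1 encodes cyclin G1, which recruits a phosphatase to Mdm2 and so takes part in the p53 feedback. Its brightest probe set (1420827_a_at) had log2 values of 9.13 and 9.17 on the GSI arrays, against 8.88 and 8.83 on the DMSO arrays. The groups did not overlap, replicates lay 0.0425 apart with GSI and 0.0521 apart with DMSO, and the difference of 0.29 ± 0.08 (SE), 1.22-fold, did not pass (gene fit, limma, adjusted p = 0.122). The 2 other probe sets differed less, by 0.14 (1450016_at) and 0.08 (1450017_at), with 95% intervals that spanned 0.

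The other 3 targets showed no difference beyond the spread between arrays. Zmat3, encoding a zinc finger protein that binds RNA, had log2 values of 6.31 and 6.57 with GSI, against 6.49 and 6.41 with DMSO, a difference of -0.01 (95% interval -0.29 to 0.27; gene fit, limma, adjusted p = 0.978). Phlda3, encoding an inhibitor of the growth kinase Akt, had 5.11 and 5.28 with GSI, against 5.09 and 5.52 with DMSO, a difference of -0.11 (95% interval -0.50 to 0.28; adjusted p = 0.757). Perp, encoding a membrane protein of desmosomes that also acts in p53-dependent apoptosis, lay below the array medians, at 3.95 and 3.75 with GSI and 3.71 and 3.84 with DMSO. In each of the 3 the arrays of the groups overlapped. For a dim probe set such as that of Perp, a small difference may be compressed by the array's background.

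**Figure D2:**
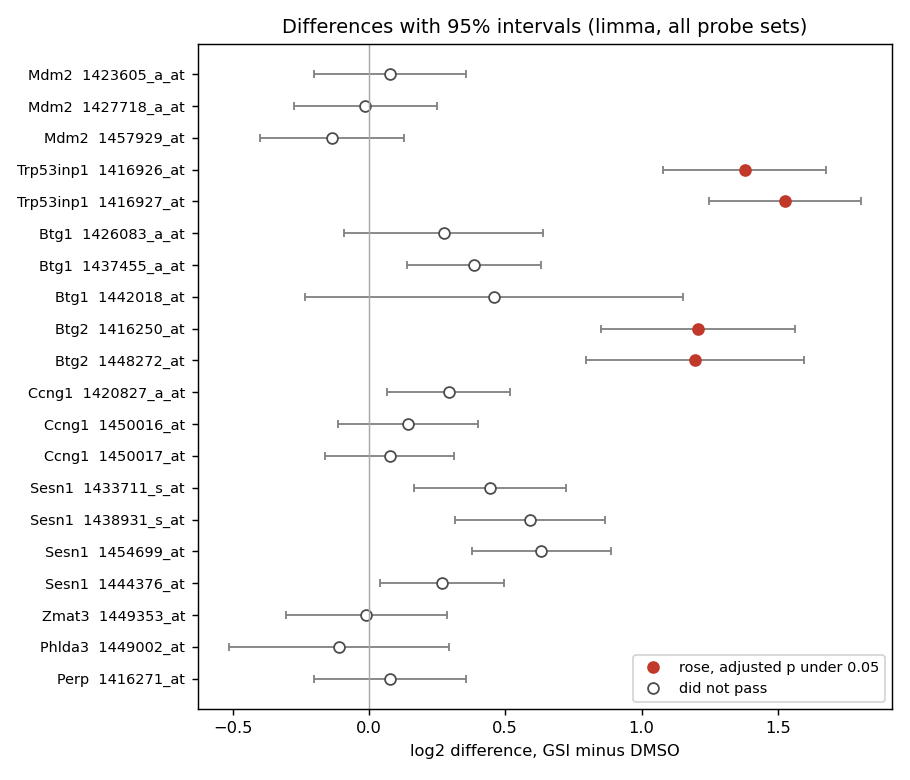
Log2 difference of GSI minus DMSO (x axis) for each probe set (y axis), with 95% intervals from the limma fit over all probe sets. Filled points passed at an adjusted p under 0.05. The Trp53inp1 and Btg2 probe sets lie between 1.20 and 1.53, the 4 of Sesn1 between 0.27 and 0.63, and those of Mdm2, Zmat3, Phlda3 and Perp around 0.

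Further p53 targets were read from a list of 39 genes, 36 of them measured. Of these 1 rose and 0 fell, a share of 2.78% rising that lies near the 2.56% of all genes, and the median log2 difference was -0.01, the same as over all genes. The gene that rose was Cdkn1a, encoding the cyclin-dependent kinase inhibitor p21, with log2 values of 10.32 and 10.30 on the GSI arrays, against 9.12 and 9.15 on the DMSO arrays (2.26-fold, limma, adjusted p = 0.00411). At an unadjusted p under 0.05, 8 were higher and 3 lower (limma), where 10.8% of all genes were higher and 10.7% lower. Gadd45a, a DNA damage response gene chosen for naming after its values were seen, had the largest difference of the list, with 8.59 and 7.85 on the GSI arrays, against 7.10 and 6.66 on the DMSO arrays (1.34, limma, adjusted p = 0.0544). Its replicates lay further apart than those of Cdkn1a in both groups. The count of rising genes in the list depended on the setting, as did that of all genes. With probe sets averaged, arrays centred on their medians and cyclic loess 3 rose, where 512, 543 and 566 of all 18193 genes did. With dim genes left out 5 of the 22 tested rose, where 11.1% of all genes tested did. With an intensity trend and robust prior 6 rose, where 5.73% of all genes did, and with the replicate block 2, where 0.808% did. Without any 1 array none rose, when almost no gene of all tested did. With dim genes left out, and with the trend and robust prior, 1 gene of the list also fell, where 829 of 9097 and 899 of 18193 genes did. Gadd45a passed in each of those fits on 4 arrays (limma, adjusted p = 0.0211 to 0.0435). Fas, named after its values were seen, had 5.32 and 4.91 with GSI, against 4.40 and 4.27 with DMSO. Its difference of 0.78 did not pass (limma, adjusted p = 0.0520). It passed in 4 of the 5 alternatives on 4 arrays that tested it (0.0164 to 0.0801 over the 5). The 3 that were lower at an unadjusted p under 0.05, also named after their values were seen, did not pass. They were Tigar (-0.51, limma, adjusted p = 0.0836), the nuclease gene Aen (-0.43, 0.0694) and Tnfrsf10b (-0.37, 0.0778). Tnfrsf10b lay below the array medians on every array.

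Regulators of p53 were mostly close to 0. Of 25 measured 1 rose and 0 fell, a share of 4% rising near the 2.56% of all genes. At an unadjusted p under 0.05, 1 was higher and 2 lower (limma), where 10.8% and 10.7% of all genes were, with a median log2 difference of 0.04. Ppp1r13b, encoding ASPP1, which steers p53 towards apoptosis genes, had log2 values of 8.07 and 7.86 with GSI, against 7.38 and 7.20 with DMSO, and rose 1.60-fold (limma, adjusted p = 0.0388). Its relative Ppp1r13l, encoding iASPP, which inhibits p53 and was named after its values were seen, had 6.79 and 7.24 with GSI, against 7.42 and 7.76 with DMSO, and its difference of -0.57 did not pass (limma, adjusted p = 0.155). Mdm4, the partner of Mdm2, also named after its values were seen, differed by 0.09 (limma, adjusted p = 0.762).

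Of 16 measured paralogs of the 9 genes 2 rose and 0 fell, a share of 12.5% rising, where 2.56% of all genes rose. At an unadjusted p under 0.05, 6 were higher and 0 lower (limma), where 10.8% and 10.7% of all genes were, with a median log2 difference of 0.09. Tob1, of the same antiproliferative family as Btg2, had log2 values of 8.84 and 8.65 with GSI, against 7.81 and 7.80 with DMSO (1.92-fold, limma, adjusted p = 0.0109). Its dimmer probe set (1440844_at) differed by 0.10. Trp53inp2, an autophagy gene related to Trp53inp1, had 6.78 and 6.59 with GSI, against 6.04 and 6.06 with DMSO, and rose 1.55-fold (limma, adjusted p = 0.0324). When its probe sets were averaged it did not pass (limma, adjusted p = 0.0654). Ccng2, the relative of Ccng1 and a gene named after its values were seen, had 10.29 and 10.21 with GSI, against 8.81 and 9.73 with DMSO. Its DMSO arrays lay far apart, and the difference of 0.98 did not pass (limma, adjusted p = 0.123).

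Of 13 measured genes of the CCR4-NOT complex and other deadenylation factors, with which Btg proteins work, 0 passed limma; with an unadjusted p under 0.05 there were 3 higher and 2 lower, where 10.8% and 10.7% of all genes were. The nearest were the deadenylase subunit gene Cnot8 (0.44, limma, adjusted p = 0.0851) and Cnot9 (-0.26, adjusted p = 0.155). With an intensity trend and robust prior 2 of this list rose, where 5.73% of all genes did, and 1 fell, where 899 of 18193 genes did. With dim genes left out 1 rose, where 11.1% of all genes tested did, and 0 fell. The FoxO and paralog lists were chosen with earlier results of these data known, so their shares are not independent of these data. Of 17 measured FoxO pathway genes 2 rose and 0 fell, a share of 11.8% rising, where 2.56% of all genes rose. Their median log2 difference was 0.21, and at an unadjusted p under 0.05, 6 were higher and 1 lower (limma), where 10.8% and 10.7% of all genes were. Pik3ip1, encoding an inhibitor of phosphoinositide 3-kinase, had log2 values of 9.02 and 8.70 with GSI, against 8.01 and 8.14 with DMSO, and rose 1.72-fold (limma, adjusted p = 0.0382). Foxo3 itself, a FoxO factor gene, had 10.15 and 9.97 with GSI, against 9.26 and 9.45 with DMSO, and rose 1.64-fold (limma, adjusted p = 0.0330). When the 3 probe sets of Foxo3 were averaged, it did not pass. The calls of these lists come from the gene fit. In the probe set fit, the same probe sets of Foxo3, Pik3ip1, Ppp1r13b and Trp53inp2 did not pass (limma, adjusted p = 0.0601, 0.0673, 0.0705 and 0.0608). Those of Cdkn1a and Tob1 passed there too (0.00979 and 0.0219). The paralog and regulator lists share Mdm4, Trp63 and Trp73, the paralog and target lists share Sesn2, the paralog and FoxO lists share Ccng2 and Sesn3, and the target and FoxO lists share Gadd45a. With any 1 array left out, when almost no gene of all tested passed, none of the genes named from these lists that had passed still did.

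**Figure D3:**
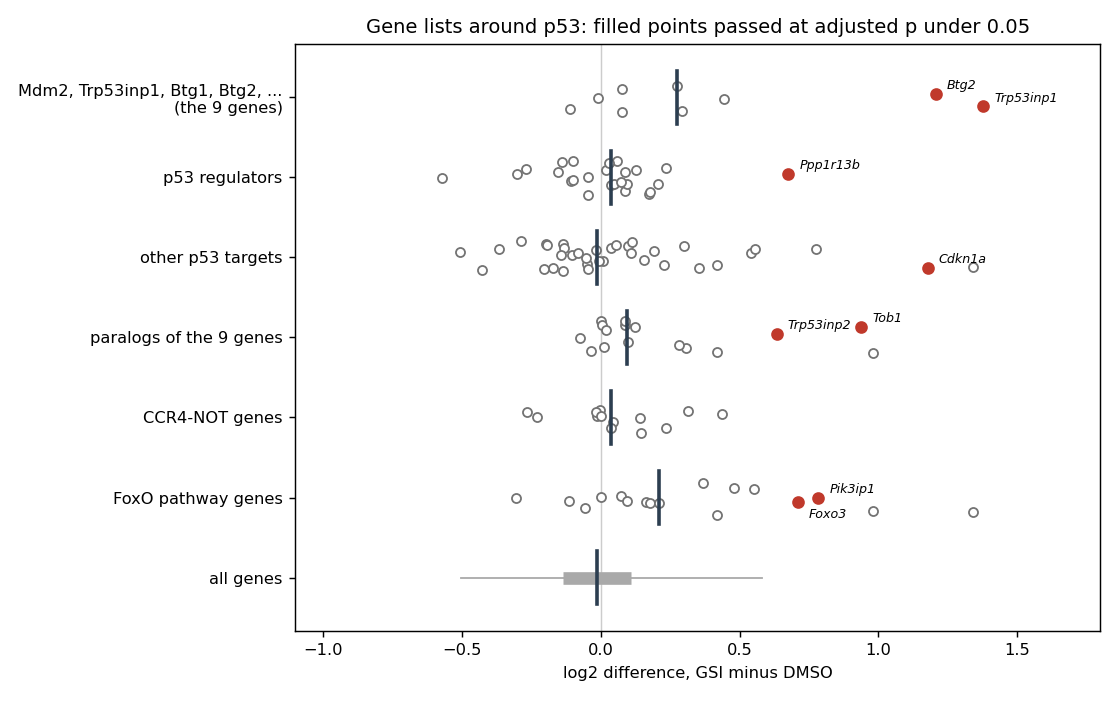
Log2 difference of GSI minus DMSO (x axis) of every measured gene of the 9 and of 5 further lists (y axis), from the limma fit over genes. Filled, named points passed at an adjusted p under 0.05, dark bars are list medians, and the lowest row gives the middle 50% (thick) and the range from the 2.5th to the 97.5th percentile (thin) of all genes, -0.50 to 0.58. The filled points all lie above 0.

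In the gene fit, calls of 4 of the 9 genes, Trp53inp1, Btg2, Sesn1 and Ccng1, differed between settings. With an intensity trend and robust prior, Sesn1 and Ccng1 also passed (limma, adjusted p = 0.0177 and 0.0416), so that 4 of the 9 rose, where 5.73% of all genes rose in that fit. With dim genes left out, they passed too (limma, adjusted p = 0.0295 and 0.0396), so that 4 of the 7 members tested rose, where 11.1% of all genes did. Averaging its probe sets gave Ccng1 a difference of 0.17 that did not pass (limma, adjusted p = 0.337). In the alternatives of the probe set fit on 4 arrays, no probe set of Ccng1 passed. With the probe sets of a gene averaged, or with another scaling or prior or the dim genes left out, Trp53inp1 (limma, adjusted p = 9.75e-05 to 0.00399) and Btg2 (0.000496 to 0.00964) passed each time. With the replicate number as a block, Trp53inp1 passed (limma, adjusted p = 0.0446) and Btg2 did not (0.0518), where 0.808% of all genes rose.

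**Figure D4:**
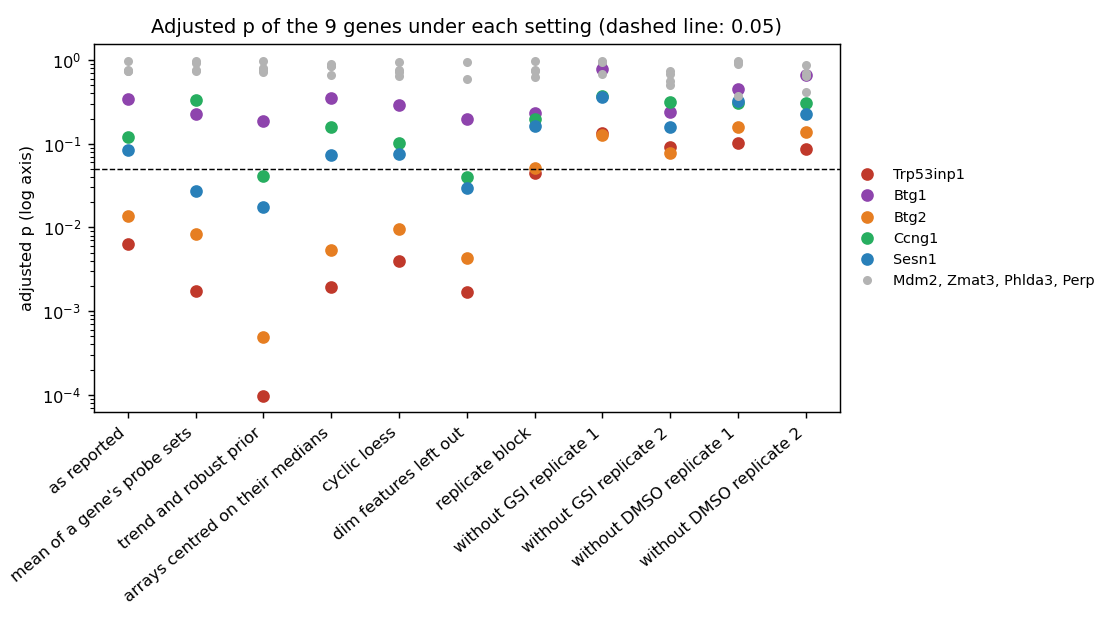
Adjusted p (y axis, log scale) of the 9 genes under each setting (x axis), with the dashed line at 0.05 and Mdm2, Zmat3, Phlda3 and Perp in grey. Trp53inp1 and Btg2 lie below the line in the fits on 4 arrays, except Btg2 with the replicate block (0.0518). None of the 9 lies below it when an array was left out, where almost no gene of all tested passed. Phlda3 and Perp were too dim to enter the fit without dim features.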

How the data were processed

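Total RNA was taken from T29 cells and biotin-labelled (one-cycle kit), per the labels' protocols. The authors deposited log2 expression per probe set, made with RMA per the submitters' processing notes. RMA corrects background, normalizes between arrays and summarises probes, compresses differences of dim probe sets and hides a shift shared by most genes. The RMA version was not given in the sources used here, and RMA could not be repeated. The table held 45101 probe sets, 64 of them controls that were left out. Of the other 45037, 34945 had 1 gene symbol, 932 several (0 of which named a listed gene) and 9160 none. Symbols were updated through gene identifiers to RefSeq GRCm38.p6 (34741 matched), which also gave the promoters.

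GSI was compared with DMSO by limma 3.58.1 in R 4.3.3 (lmFit, eBayes, two-sided, 5.80 total degrees of freedom in the gene fit, Benjamini-Hochberg over all genes or all probe sets). No filter on dim values was used. The number of arrays limits the precision. The members, lists and tests were chosen with earlier results of these data known. The named genes are the 10 listed and, per list, up to 4 called genes with the largest difference or, without a call, the 2 with the smallest p; others are said to be named after their values were seen. Alternatives changed the probe set summary, prior, scaling, dim filter, replicate block and arrays. The scripts were tested on simulated data.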

Additional observations from a re-analysis of the deposited data

How the results depend on the processing

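With an array left out, the gene fit called 0 to 6 genes (0 to 1 rising, 0 to 5 falling) and the probe set fit 0, against 750 and 628 with all arrays, and 0 of the 9 genes or 20 probe sets passed. The lone array is then assumed to vary like the other group. With an intensity trend and robust prior, 1941 genes were called (1042 rose, 899 fell) and 2372 probe sets (1338 rose, 1034 fell), of which 4 of the 9 genes and 8 of the 20 probe sets. With dim features left out, 1838 genes (1009 rose, 829 fell, 4 of the 9 genes) and 1556 probe sets (969 rose, 587 fell) were called. Centring arrays on their medians called 479 falling genes, against 284. The cause of these changes was not tested, except that fewer features or arrays entered some fits. The replicate numbers gave no known pairing: the deviations of same-numbered arrays correlated at 0.0851 across genes, which are not independent. With the replicate number as a block, 217 genes were called (147 rose, 70 fell; of the 9, only Trp53inp1) and 65 probe sets (37 rose, 28 fell; 0 of the 20); Ppp1r13b, Trp53inp2, Pik3ip1 and Foxo3 no longer passed (0.0632 to 0.108). No difference among the 9 genes that passed changed direction. Of those that did not pass, Mdm2 was -0.024 as the mean of its probe sets. With an array left out, its probe sets ranged from -0.036 to 0.19 and from -0.099 to 0.072, Zmat3 from -0.14 to 0.12, Phlda3 from -0.33 to 0.11, Perp from -0.024 to 0.18 and Mdm4 from -0.062 to 0.24. Gadd45a passed under all 6 alternatives on 4 arrays (adjusted p = 0.0211 to 0.0435).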
